A study of Mus musculus with 4 samples.

Results

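Chemokines are small secreted proteins that guide the movement of leukocytes, and they signal through G protein-coupled receptors on the cell surface. The genes were taken here as the protein-coding rows of the deposited expression table whose GENCODE M21 symbol begins with Ccl, Cxcl, Ccr, Cxcr or Ackr and a number. Of 23552 genes in the table, 42 met this rule, 23 of them ligands (13 Ccl and 10 Cxcl) and 19 receptors (9 Ccr, 6 Cxcr and 4 atypical receptors of the Ackr group). The rule matched 55 protein-coding genes in the annotation, and the other 13 were not analysed here. In bone marrow, CXCR4 and its ligand CXCL12 hold stem cells and leukemic cells in their niche, CCR2 lets monocytes leave the marrow, and CXCR2 does the same for neutrophils. Atypical receptors bind chemokines without G protein signaling and act as scavengers.

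RNA-Seq was performed on AML c-Kit+ cells from the bone marrow of moribund C57BL/6 mice (C57BL/6J in the methods) with MLL-AF9-induced leukemia. In the SUV-OE group (replicates 2 and 3), the leukemic cells carried a Suv39h1-eGFP overexpression construct, and in the control group (replicates 3 and 4) they carried the eGFP control, so that MLL-AF9 and eGFP were common to both. Sorted eGFP+ cells had been transplanted into sub-lethally irradiated recipients, a treatment that spares part of the host's own blood cells. The mice were female and 8 weeks old by the methods, and the labels do not say whether a library is 1 mouse, so p-values measure the spread between these 4 libraries, all of RNA-seq batch 2. The question was how Suv39h1, a methyltransferase of histone H3 lysine 9, changes expression in these cells.

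As a check of the labels, Suv39h1 reached 12.4 FPKM in either control and 75.3 and 81.2 FPKM with SUV-OE, and Kit, the marker used to enrich the cells, had 20.4 and 19.2 FPKM in the controls and 28.6 and 25.4 FPKM with SUV-OE. FPKM is the number of fragments per kilobase of transcript, scaled to the mapped reads of the library, so levels can be compared between genes. Between 19896527 and 23340172 reads per library were recovered from the steps between FPKM values, and on 1 kb of exons 3 reads gave an FPKM of 0.154 to 0.178, a floor that covers counting error only. Markers of mature blood cells were detected, and 10 of 10 neutrophil genes were higher in both SUV-OE libraries than in both controls, a pattern held by 25.7% of all genes, with a summed FPKM of 766 and 2413 in the controls and 6682 and 8130 with SUV-OE. In bulk RNA, more cells of a type and more RNA per cell cannot be told apart.

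The sequences just upstream of 4 members are shown, because Ccl9 and Cxcr4 were the most abundant ligand and receptor, Cxcl2 varied most between libraries among the abundant members, and Cxcr2 had the largest fold change by limma of the 4 receptors that it tested. RefSeq promoter windows (GRCm38.p6, the assembly of mm10) were found for 31 of the 42 members, and the parts before both the RefSeq start and the GENCODE M21 start are printed 5′ to 3′ on the strand of the gene. Capitals mark matches on either strand to a TATA box (TATAAA) or to a consensus site of NF-kB, the factor that switches on inflammatory genes. They are chr11:83578637-83578886 on the minus strand for Ccl9, chr5:90903649-90903870 on the plus strand for Cxcl2, chr1:74153744-74153988 on the plus strand for Cxcr2 and chr1:128592300-128592549 on the minus strand for Cxcr4.
Ccl9: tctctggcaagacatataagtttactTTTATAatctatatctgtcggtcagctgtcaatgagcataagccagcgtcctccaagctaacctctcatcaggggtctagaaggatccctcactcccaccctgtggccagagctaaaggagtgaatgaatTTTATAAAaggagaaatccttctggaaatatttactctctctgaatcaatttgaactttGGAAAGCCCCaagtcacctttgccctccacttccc
Cxcl2: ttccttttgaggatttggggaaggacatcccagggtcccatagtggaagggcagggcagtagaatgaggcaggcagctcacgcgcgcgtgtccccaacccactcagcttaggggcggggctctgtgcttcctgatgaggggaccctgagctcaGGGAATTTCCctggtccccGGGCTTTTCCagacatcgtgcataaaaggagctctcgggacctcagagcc
Cxcr2: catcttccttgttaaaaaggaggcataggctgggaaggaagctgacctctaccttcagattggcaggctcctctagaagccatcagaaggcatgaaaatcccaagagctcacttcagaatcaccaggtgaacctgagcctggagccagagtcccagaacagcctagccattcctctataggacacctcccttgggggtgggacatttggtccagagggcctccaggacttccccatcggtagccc
Cxcr4: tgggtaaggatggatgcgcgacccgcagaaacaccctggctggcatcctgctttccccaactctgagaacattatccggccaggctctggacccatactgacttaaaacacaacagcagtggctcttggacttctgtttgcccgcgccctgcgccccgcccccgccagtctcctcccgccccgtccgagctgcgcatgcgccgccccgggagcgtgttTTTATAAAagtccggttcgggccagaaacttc

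The Cxcl2 stretch held 2 NF-kB matches. The Ccl9 stretch held 1 NF-kB match and TATA box matches, while the Cxcr4 stretch held a TATA box match, whose capitals hold it on both strands, and Cxcr2 held none of the motifs searched. Over the full windows of 300 bases, the NF-kB letters were in 5 of 34 windows of members (14.7%), those of Ccl9, Ccr3, Cxcl1, Cxcl2 and Cxcl3, against 1.63% of all 32851 windows. The TATA box letters were in 23.5% of member windows and 13.6% of all windows. A PU.1-type ETS site (GAGGAAGT) was in 2.94% and 3.2%, and a C/EBP-type site (TTNNGCAA) in 8.82% and 10.8%. These motifs were chosen after the expression values were seen, and a match is a description of the letters, not a shown binding site.

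A few genes carried nearly all of the expression of both families. By mean FPKM over the 4 libraries the order was Cxcr4 (112), Ccl9 (92.9), Ccl3 (31.1), Ccr1 (24.9), Ccr2 (8.19), Cxcl2 (7.30), Ccl4 (6.10) and Ccl6 (4.45). Cxcr4 ranked 442 and Ccl9 ranked 540 among all 23552 genes. The highest 4 members held 87.3% of the summed mean FPKM of the 42 genes. The ranges over the 4 libraries, both groups pooled, overlapped for Cxcr4 and Ccl9 and for Ccl3 and Ccr1. They also overlapped between neighbours from Ccr2 down to Ccl6, so the order of such neighbours is not firm. Compared library by library, Ccr2 was above Ccl6 in each. The libraries of Ccl9 and Ccl3 did not overlap, nor did those of Ccr1 and Ccr2.

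A mean FPKM of at least 0.5 was reached by 14 members, namely 10 of 23 ligands and 4 of 19 receptors, and only these were tested on log2(FPKM + 1) with limma. The nearest members on either side of this filter were Ccl5 with a mean FPKM of 0.517 and Cxcl12 with 0.489. A gene was called where the adjusted p-value was under 0.05 and the log2 fold change was 1 or more in either direction. By this test, 0 of the 14 members were called, against 1.22% of all 13736 tested genes (0.815% higher and 0.408% lower in SUV-OE). An unadjusted limma p-value under 0.05 was reached by 2 members, Ccr2 and Cxcr2, both higher in SUV-OE, against 20.7% of all tested genes.

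The median log2 fold change, SUV-OE minus control, was 0.22 for the 10 ligands and 0.51 for the 4 receptors, and -0.02 for all tested genes. With no filter on low values the order turned, at 0.10 for all 23 ligands and 0.048 for all 19 receptors. On log2(FPKM + 1) changes at low values are understated, and 15 of the 19 receptors and 13 of the 23 ligands were under the filter. Among ligands 7 were higher and 3 lower in SUV-OE, and among receptors 3 were higher and 1 lower, where 47% of all tested genes were higher. The ligands Ccl5 and Cxcl14 reached the filter only through SUV-OE, where they were higher. Without them, at a filter of 1 FPKM, 5 of 8 ligands were higher with a median of 0.18. Ccl25, among the 5, in turn reached 1 FPKM only through SUV-OE (group means 0.864 in control and 1.43 with SUV-OE). These ligand counts are therefore no support for a direction. After quantile normalization 6 ligands were higher and 4 lower, and 4 receptors were higher. Without SUV-OE replicate 3 the ligand median was -0.059, so its sign rested on that library. Both SUV-OE libraries were above both control libraries in 5 of the 14 tested members, Ccl5 included, a pattern held by 25.4% of all tested genes, and below them in 1, against 28.4%. Over all 42 members, tested or not, the SUV-OE libraries were above in 16 (7 ligands and 9 receptors), below in 3 (2 ligands and 1 receptor) and overlapping in 23, where 25.7% of all genes in the table were above and 21.9% below.

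**Figure D1:**
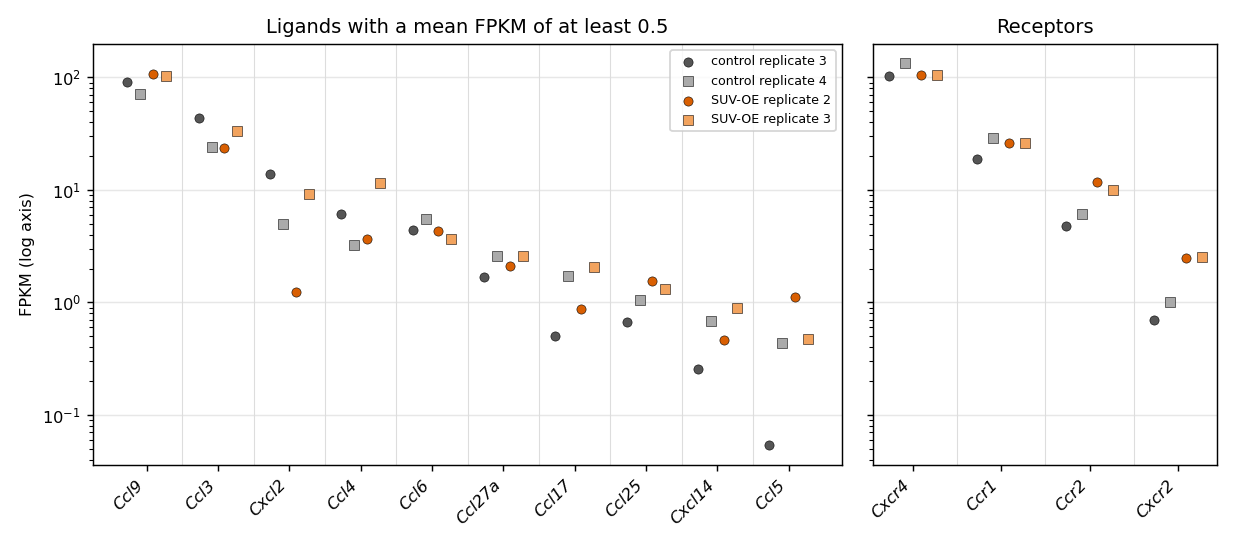
FPKM (log axis) of the 10 ligands and 4 receptors with a mean FPKM of at least 0.5, with 1 point per library and no error bars. Both SUV-OE libraries lie above both control libraries for Ccr2 and Cxcr2, while the points of Cxcl2, Ccl4 and Ccl3 mix.

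The tested receptors fell into 2 whose groups did not overlap, Ccr2 and Cxcr2, and 2 whose groups overlapped, Cxcr4 and Ccr1. Ccr2 (ENSMUSG00000049103), the receptor of monocyte chemoattractants, reached 4.81 and 6.11 FPKM in the controls and 11.8 and 10.004 FPKM with SUV-OE. The SUV-OE libraries lay above both controls, and the ratio of the group means was 2.00. Its log2 fold change stood at 0.89 (standard error, SE, 0.16; adjusted p = 0.0855 by limma). Ccr2 lies at chr9:124101950-124113557 on the plus strand in mm10.

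Cxcr2 (ENSMUSG00000026180, chr1:74153989-74161246, plus strand), the neutrophil receptor of CXCL1, CXCL2, CXCL3 and CXCL5, reached 0.691 and 1.01 FPKM in the controls and 2.48 and 2.51 FPKM with SUV-OE. The groups did not overlap, and the mean in SUV-OE was 2.93 times that in control. The log2 fold change of Cxcr2 was 0.92 (SE 0.16, adjusted p = 0.0829 by limma). On log2(FPKM + 1) the change of a gene at this level is understated. Its neighbour Cxcr1, the other neutrophil receptor, was at 0 in both control libraries and had 1 and 3 reads in SUV-OE, too few for a fold change.

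Cxcr4 (ENSMUSG00000045382, chr1:128588199-128592293, minus strand) reached 103 and 134 FPKM in the controls and 105 and 105 FPKM with SUV-OE. Both SUV-OE libraries lay between the controls. The log2 fold change of -0.16 (SE 0.18, adjusted p = 0.637 by limma) had a 95% interval from -0.62 to 0.29. After quantile normalization it was 0.051 and without control replicate 4 it was 0.025, so that the direction depended on the scaling and on that library.

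Ccr1, a receptor for CCL3, CCL5, CCL6 and CCL9, reached 19.0 and 28.7 FPKM in the controls and 25.9 FPKM in each SUV-OE library. The SUV-OE libraries again lay between the controls, with a log2 fold change of 0.14 (SE 0.21, adjusted p = 0.737 by limma) and a 95% interval from -0.41 to 0.69. The sign of the log2 fold change of Ccr1 turned to -0.14 without control replicate 3.

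The reads recovered from the FPKM allowed a test of lower genes. Of the 42 members, 18 had a mean of at least 10 reads and were tested with limma-voom at the scaling of the deposited FPKM. Called at the same thresholds were 3 members, all receptors and all higher in SUV-OE, against 3.57% of all 14280 genes called higher and 4.67% called in either direction (1.1% lower). Of the 18 members 14 were higher in SUV-OE, against 48.6% of all genes, and 7 had an unadjusted p-value under 0.05 by limma-voom, against 24.6%. Of the 18, 2 reached the filter only through SUV-OE, 1 of them called, so these counts are no support for a direction. Ccr2 had 598 and 659 reads in the controls and 1342 and 1137 with SUV-OE, with a log2 fold change of 1.01 (SE 0.17, adjusted p = 0.0237 by limma-voom). Cxcr2 had 41 and 52 reads in the controls and 134 and 136 with SUV-OE, with a log2 fold change of 1.58 (SE 0.29, adjusted p = 0.0276 by limma-voom).

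When single libraries were left out, the limma-voom log2 fold change stayed between 0.83 and 1.18 for Ccr2 and between 1.29 and 1.84 for Cxcr2. With 1 library left in a group, which is then assumed to vary like the other group, the calls depended on the library. Ccr2 was called without control replicate 4 and without SUV-OE replicate 3, and Cxcr2 in none of these fits, where its adjusted p-values by limma-voom ranged from 0.0509 to 0.0965. Without control replicate 3, no member was called, and 52 genes were called in all against 667.

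**Figure D2:**
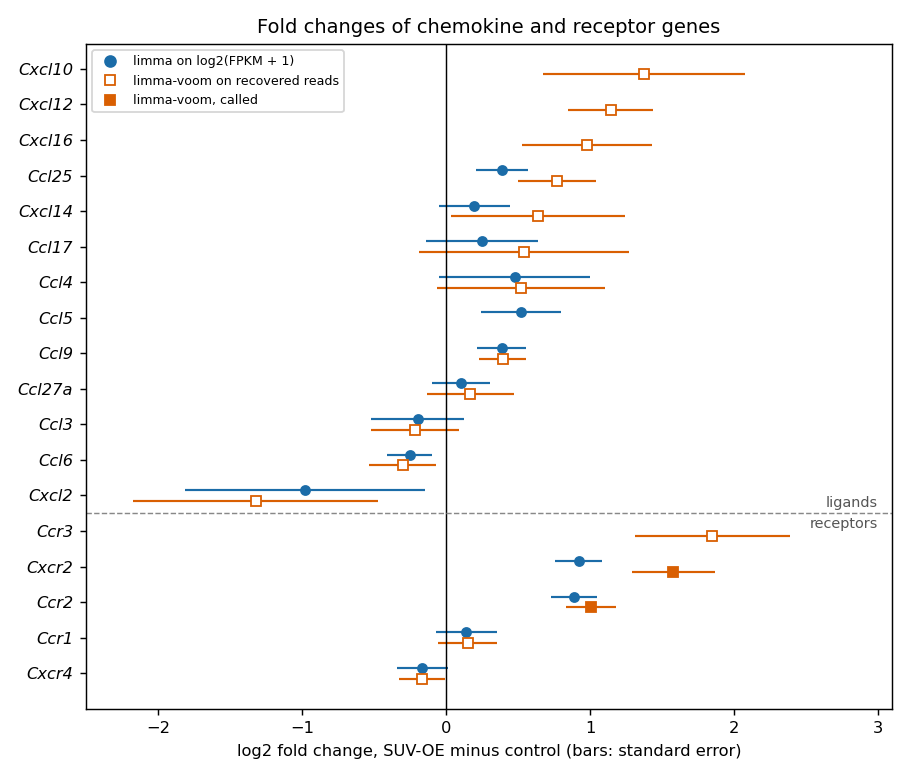
Log2 fold change (SUV-OE minus control, bars are the standard error) of the ligand and receptor genes tested by limma on log2(FPKM + 1) (circles) or by limma-voom on recovered reads (squares, filled where called). The filled squares are Cxcr2 and Ccr2, at 1.58 and 1.01, and the ligands scatter on both sides of 0.

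Ccr9, Cxcr6, Ccr1, Ccr3 and Ccr2 lie in this order on chromosome 9, between positions 123678439 and 124113557. Ccr3, the eotaxin receptor of eosinophils, reached 0.110 and 0.326 FPKM in the controls and 0.775 and 0.619 FPKM with SUV-OE, with 7 and 18 reads against 45 and 36. The groups of Ccr3 did not overlap, but it did not pass the test, with a log2 fold change of 1.85 (SE 0.54, adjusted p = 0.0932 by limma-voom). Cxcr6 had 0.163 and 0.250 FPKM in the controls and 0.119 and 0.238 FPKM with SUV-OE, and Ccr9 had 0.0218 and 0.0880 FPKM in the controls and 0.0359 and 0.0477 FPKM with SUV-OE. Along the cluster, both SUV-OE libraries were thus above both controls in Ccr3 and Ccr2, as in 25.7% of all genes, and the groups overlapped in Ccr9, Cxcr6 and Ccr1. Cxcr6 and Ccr9 were named after their values were seen.

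**Figure D3:**
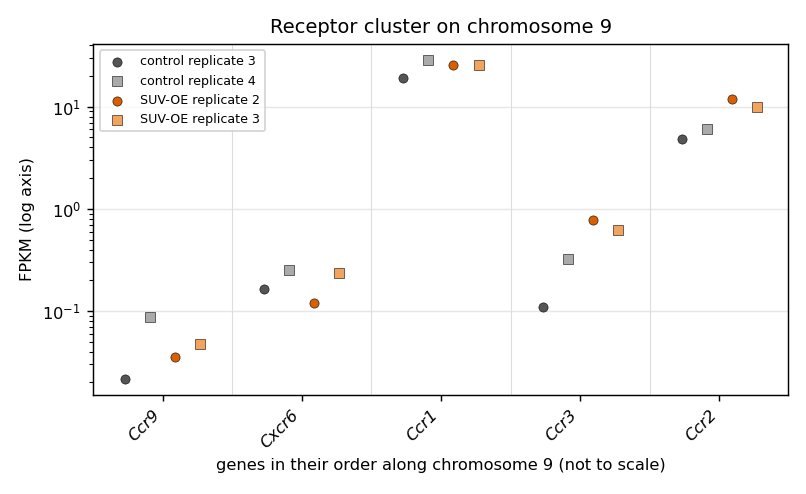
FPKM (log axis) of 5 receptor genes clustered on chromosome 9, in gene order and not to scale, with 1 point per library. SUV-OE points lie above control points for Ccr3 and Ccr2, and they mix with control points for Ccr9, Cxcr6 and Ccr1.

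The marker counts of mature cells that carry these receptors are set against the same 25.7% of all genes, with 21.9% below. Beside Cxcr2, the neutrophil markers given above were higher with SUV-OE in 10 of 10 genes, none of them at 0 in any library. Of 10 monocyte and macrophage markers, 8 were higher in both SUV-OE libraries and 2 (Ly6c2 and Vcam1) were lower. Their summed FPKM was 415 and 707 in the controls and 407 and 444 with SUV-OE. Ly6c2 alone gave 281 and 545 of this against 229 and 269. Of 7 eosinophil, basophil and mast cell markers, 5 were higher in both SUV-OE libraries, with sums of 80.8 and 146 against 268 and 208. Of 8 T and NK cell markers 2 were higher, with sums of 73.4 and 113 against 76.6 and 83.4. Nkg7 alone gave 73.0 and 112 against 75.5 and 82.3, so these sums are no measure of the other markers. Cd3e, Cd3g, Cd2, Trac and Ncr1 were at 0 in at least 1 library. The part of such cells in the values of Cxcr2, Ccr2 and Ccr3 was not tested.

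Among the ligands, the CC family on chromosome 11 gave the highest values. Ccl9 (ENSMUSG00000019122, chr11:83572919-83578636, minus strand), which attracts myeloid cells through CCR1, reached 90.7 and 70.5 FPKM in the controls and 108 and 102 FPKM with SUV-OE. The groups did not overlap, but the difference did not pass the test, with a log2 fold change of 0.39 (SE 0.17, adjusted p = 0.285 by limma). The 95% interval of the Ccl9 change ran from -0.05 to 0.83. Ccl6, its neighbour and a further CCR1 ligand, was the only tested member with both SUV-OE libraries below both controls, at 4.38 and 5.48 in the controls and 4.27 and 3.67 with SUV-OE. Its log2 fold change stood at -0.25 (SE 0.15, adjusted p = 0.417 by limma).

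Ccl3 (ENSMUSG00000000982, chr11:83647844-83649355, minus strand), which encodes the macrophage inflammatory protein MIP-1 alpha, reached 43.3 and 24.1 FPKM in the controls and 23.8 and 33.1 FPKM with SUV-OE. The libraries of the groups overlapped, with a log2 fold change of -0.20 (SE 0.32, adjusted p = 0.761 by limma). Ccl4, the adjacent gene of MIP-1 beta, had 6.08 and 3.23 FPKM in the controls and 3.67 and 11.4 FPKM with SUV-OE. The highest value of Ccl4 was in SUV-OE replicate 3 and that of Ccl3 in control replicate 3, and Ccl4 had a log2 fold change of 0.48 (SE 0.53, adjusted p = 0.645 by limma). Ccl5, the T cell chemokine RANTES, had 0.0535 and 0.432 FPKM in the controls and 1.12 and 0.469 FPKM with SUV-OE. The reads behind Ccl5 were 1 and 7 in the controls and 19 and 8 with SUV-OE, with a fitted log2 fold change of 0.52 (SE 0.28, adjusted p = 0.364 by limma).

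Cxcl2, a neutrophil attractant that NF-kB induces and that binds CXCR2, varied by more within SUV-OE than between the group means. Its FPKM was 13.8 and 4.93 in the controls and 1.23 and 9.19 with SUV-OE, an 11.3-fold range over the 4 libraries and a 7.50-fold range within SUV-OE. The highest value was in control replicate 3 and the lowest in SUV-OE replicate 2. The log2 fold change of Cxcl2 was -0.98 (SE 0.83, adjusted p = 0.551 by limma), and it was 0.12 without SUV-OE replicate 2 and -2.08 without SUV-OE replicate 3. Without SUV-OE replicate 3, limma-voom called Cxcl2 lower, with a log2 fold change of -2.76 and an adjusted p-value of 0.0189, so that the call hung on leaving out that library.

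The CXCR2 ligands Cxcl1, Cxcl3 and Cxcl5 were near the floor. Cxcl1 had 5 and 1 reads in the controls and 0 and 7 with SUV-OE. Cxcl3 had 4 and 0 reads in the controls and 2 and 1 with SUV-OE, and Cxcl5 had 2 and 0 reads in the controls and 1 and 5 with SUV-OE. In Cxcl1, Cxcl3 and Cxcl5 the groups overlapped. Cxcl2 and Cxcl3 transcripts share 126 stretches of 50 bases, 5.84% of those of Cxcl2, which adds uncertainty to the few Cxcl3 reads.

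The CCR2 ligands Ccl2 and Ccl8 were low while the receptor was not. Ccl2, the main monocyte attractant, had 12 and 1 reads in the controls and 6 and 2 with SUV-OE, and Ccl8 had 0 and 1 reads in the controls and 1 and 6 with SUV-OE. Neither separated the groups. Ccl22, a T cell attractant from dendritic cells, had 29 reads in control replicate 3 and 1, 0 and 1 in the other libraries, in the order of control replicate 4 and SUV-OE replicates 2 and 3. It was chosen after its values were seen, as a gene that 1 library decided.

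Cxcl12, the chemokine ligand of CXCR4 and a product of marrow stroma, reached 0.264 and 0.348 FPKM in the controls and 0.724 and 0.619 FPKM with SUV-OE. The reads of Cxcl12 were 42 and 48 in the controls and 105 and 90 with SUV-OE, and both SUV-OE libraries were above both controls. The log2 fold change stood at 1.14 (SE 0.30, adjusted p = 0.0705 by limma-voom), short of the threshold. Of 10 stromal and endothelial markers 4 were higher in both SUV-OE libraries and 0 lower, against 25.7% and 21.9% of all genes. Their summed FPKM was 26.3 and 32.4 in the controls and 80.7 and 71.1 with SUV-OE. Pecam1 alone gave 16.7 and 23.3 against 70.3 and 64.1 of this, and Pdgfrb gave 8.56 and 7.78 against 8.44 and 5.57. The stromal and endothelial markers named here were chosen after their values were seen. Col1a1, the collagen gene of stromal cells, had 0.431 and 0.307 FPKM in the controls and 0.412 and 0.317 FPKM with SUV-OE, and Lepr had 0.0583 and 0.0673 against 0.160 and 0.160. The part of stromal or endothelial cells in the Cxcl12 value was not tested. Ackr3, the scavenger receptor of CXCL12, had no read in control and 3 and 1 in SUV-OE.

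Of 28 listed ligand and receptor pairs with both genes among the members, 5 had both partners at a mean FPKM of at least 0.5. These were Ccl3, Ccl5, Ccl6 and Ccl9 with Ccr1, and Cxcl2 with Cxcr2. In 9 pairs neither partner reached it. Cxcr4 was high where Cxcl12 was low, with a mean FPKM of 112 against 0.489.

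Of the remaining tested ligands, only Ccl25, named after its values were seen, had both SUV-OE libraries above both controls, as in 25.4% of all tested genes. It did not pass the test. Ccl25, the thymic and gut ligand of CCR9, reached 0.670 and 1.06 FPKM in the controls and 1.54 and 1.31 FPKM with SUV-OE, with a log2 fold change of 0.39 (SE 0.18, adjusted p = 0.310 by limma). Its exons overlap those of Elavl1 on the opposite strand, and since the library kit does not mark strand, reads of both genes cannot be told apart there. The log2 fold changes of Ccl17, Ccl27a and Cxcl14 were 0.25, 0.10 and 0.20, with groups that overlapped and limma adjusted p-values from 0.683 to 0.804. Ccl17 is a ligand of CCR4, and Ccl27a of CCR10, receptors with at most 9 reads in any library. The exons of Ccl27a overlap those of Il11ra1 on the opposite strand.

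Of the 28 members under the FPKM filter, 17 had no library above 10 reads. Both SUV-OE libraries were above both controls in 11 of the 28, a pattern held by 26% of all genes under the filter, and below them in 2, against 12.8%. Among the 11 were the ligands Cxcl9, Cxcl10, Cxcl12 and Cxcl16, the receptors Ccr3, Ccr10, Cxcr1, Cxcr3 and Cxcr5, and Ackr3. In Ccr10, Cxcr1 and Ackr3 both controls were at 0, and the largest of their SUV-OE values was 9 reads, so the separation rests on few reads. Exons of Cxcr5 overlap those of Bcl9l on the opposite strand. In the 2 genes below, Ccl22 and Ccr8, it rests on control replicate 3 or on single reads. The groups overlapped in the other 15, among them Ccr7, which guides dendritic and T cells to lymph nodes, and the atypical receptors Ackr1, Ackr2 and Ackr4. The summed FPKM of the 4 atypical receptors was 0.273 and 0.206 in the controls and 0.440 and 0.170 with SUV-OE.

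Of the interferon-induced ligands of CXCR3, Cxcl10 had 14 and 4 reads in the controls and 13 and 32 with SUV-OE, and Cxcl9 had 7 and 9 reads in the controls and 10 and 10 with SUV-OE. The lower SUV-OE value of Cxcl10 exceeded the higher control value by little, at 0.325 against 0.320 FPKM, with a fitted log2 fold change of 1.37 (SE 0.70, adjusted p = 0.279 by limma-voom). Cxcl16, a membrane-bound ligand of CXCR6, had 0.238 and 0.216 FPKM in the controls and 0.560 and 0.372 FPKM with SUV-OE, with a log2 fold change of 0.98 (SE 0.45, adjusted p = 0.234 by limma-voom). Exons of Cxcl16 overlap Zmynd15 and those of Cxcl10 overlap Art3, each on the opposite strand. Cxcr5, the B cell receptor of CXCL13, had 0.0910 and 0.0420 FPKM in the controls and 0.160 and 0.319 FPKM with SUV-OE. Of 8 B cell markers, 6 were higher in both SUV-OE libraries, against 25.7% of all genes, with sums of 18.5 and 27.5 against 35.8 and 79.4. The part of B cells was not tested.

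**Figure D4:**
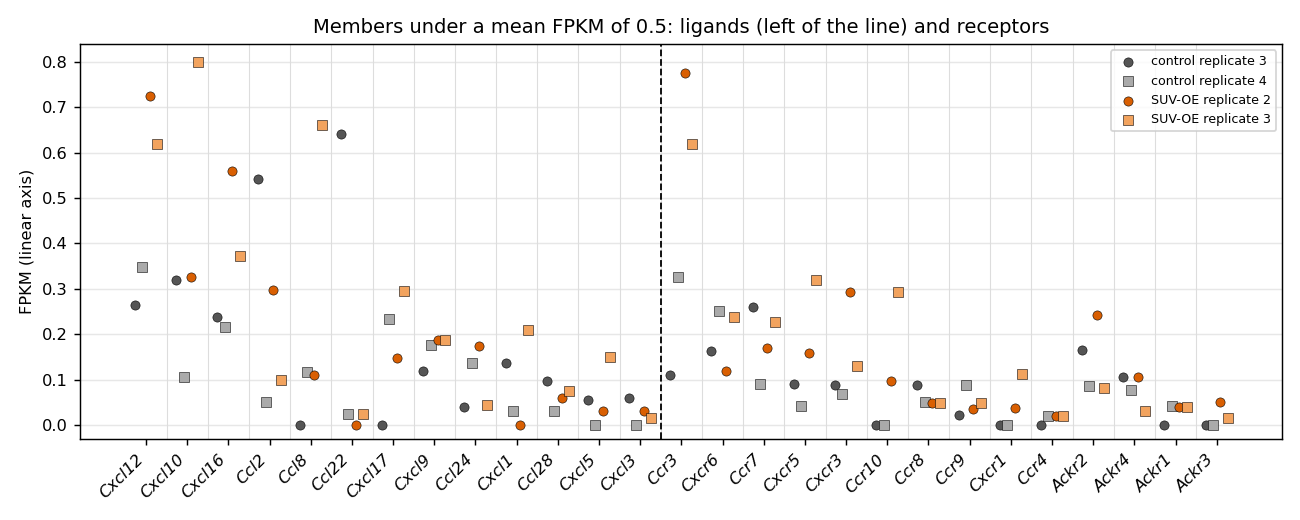
FPKM (linear axis) of members with a mean FPKM under 0.5, ligands to the left of the dashed line and receptors to the right, with 1 point per library. The SUV-OE points of Cxcl12 and Ccr3 stand above the control points, and Ccl22 is high in control replicate 3 alone.

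The libraries differed in how often they held the extremes. Control replicate 3 had the lowest FPKM in 18 of the 42 members by itself and in 3 together with control replicate 4, at 0. It was lowest in Ccl5, Ccl17, Ccr1 and Cxcr2, and it was highest in 9 members, among them Ccl3, Cxcl2, Ccl2 and Ccl22. SUV-OE replicate 3 was highest in 14 members. The summed FPKM of all ligands was 164 and 116 in the controls and 150 and 171 with SUV-OE, and that of all receptors was 129 and 171 in the controls and 147 and 146 with SUV-OE. The sums overlapped for ligands and for receptors, and Cxcr4 gave 75.3% of the receptor sum and Ccl9 61.9% of the ligand sum over the 4 libraries.

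A list of 53 genes that act beside and downstream of chemokine receptors held other chemokines and receptors, G protein subunits, receptor kinases, arrestins, RGS proteins, which shut off G proteins, and kinases and GTPases of cell migration. Of the 44 tested, 0 were called by limma, against 1.22% of all tested genes, and 1 (Fgr) had an adjusted p-value under 0.05. Of the 44, 25 were higher and 19 lower (35 and 9 after quantile normalization), and the median log2 fold change was 0.05. An unadjusted limma p-value under 0.05 was reached by 7, all higher in SUV-OE, against 20.7% of all tested genes in either direction and 10.3% in that direction. By limma-voom 2 of 48 were called, Fgr and Ppbp, against 4.67% of all genes.

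Ppbp (Cxcl7), a platelet chemokine, reached 0.665 and 2.08 FPKM in the controls and 6.30 and 8.26 FPKM with SUV-OE. Its log2 fold change stood at 1.86 (SE 0.33, adjusted p = 0.0840 by limma). Pf4 (Cxcl4), the platelet chemokine beside it, had 0.856 and 3.62 FPKM in the controls and 4.77 and 8.43 FPKM with SUV-OE, with a log2 fold change of 1.33 (SE 0.50, adjusted p = 0.232 by limma). Of the 5 megakaryocyte markers, which include Pf4 and Ppbp, 4 were higher in both SUV-OE libraries, against 25.7% of all genes. The part of megakaryocytes was not tested.

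Fgr, a Src family kinase of myeloid cells, reached 2.93 and 2.70 FPKM in the controls and 6.36 and 6.65 FPKM with SUV-OE. Its log2 fold change stood at 0.98 (SE 0.12, adjusted p = 0.0471 by limma), just short of the fold change threshold, and 1.21 by limma-voom (adjusted p = 0.0138). Rgs10 had 5.08 and 8.94 FPKM in the controls and 11.6 and 13.9 FPKM with SUV-OE, with a log2 fold change of 0.82 (adjusted p = 0.191 by limma). Rgs2 had 67.8 and 39.8 FPKM in the controls and 29.1 and 40.3 FPKM with SUV-OE, with a log2 fold change of -0.59 (adjusted p = 0.351 by limma). The groups overlapped in Rgs2 and not in Rgs10 or Fgr.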

How the data were processed

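RNA-seq libraries of 2 control and 2 SUV-OE samples were analysed. Per the study's methods and the labels, the authors made TruSeq RNA v2 libraries, ran CASAVA 1.8, aligned paired-end reads to mm10 with TopHat2 and computed FPKM with Cufflinks. Since most of these values are whole reads at an exon length, which Cufflinks estimates need not be, the tool behind them is uncertain. The deposited FPKM are 1 value for each gene in each library, and the annotation release is not given in the sources used here. The study used DESeq2, a count test that does not suit FPKM, and its input is not given in the sources used here.

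Gene symbols, positions and exon lengths came from GENCODE M21 (mm10). Genes were kept at a mean FPKM of 0.5 or more (13736 genes), and log2(FPKM + 1) was fitted with limma 3.58.1 in R 4.3.3, with the group as the only term, a trended variance, two-sided tests and Benjamini-Hochberg adjustment over all tested genes. At the exon length, 78.5% of genes had whole reads in all 4 libraries within a tolerance of 0.01, against 0.388% with lengths drawn from other genes. For the rest, reads were taken at another fitted length or estimated. Reads with a mean of at least 10 entered limma-voom, scaled as the deposited FPKM. Both tests and the recovery were tested on simulated data. Of the 4 libraries, each was left out in turn.

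Members and lists were chosen with earlier results of these data known. Values in all libraries were given for members that were called, that passed limma-voom or had a mean FPKM of at least 5, for tested members whose groups did not overlap with a log2 fold change of 0.5 or more in either direction, and for the partner genes of all these. Of the signaling list, the called genes and the 5 with the largest changes by limma were named. Lists of dendritic, erythroid and leukemic progenitor markers were also summed. Higher in both SUV-OE libraries were 5 of 9, 2 of 6 and 3 of 7 genes, and lower in both were 1, 0 and 2. Of all genes, 25.7% were higher and 21.9% lower. No per-sample column was left unmapped, and no protein sequence was used here. The values of 1 member and 1 marker gene, though counted in the totals, are not reported here.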

Additional observations from a re-analysis of the deposited data

How the results depend on the processing

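No paired analysis was possible because replicate 3 is the 1 number found in both groups. Among members, limma gave 0 calls with a pseudocount of 0.1, quantile or median-of-ratios scaling, no variance trend or no fold change threshold (14 tested). It also gave 0 calls with no filter (42 tested) and with a filter at 1 FPKM (12 tested). By limma-voom, 3 of 18 tested members were called. With library sizes from the summed reads, chosen after the data were seen, limma-voom also called 3. Over all genes, 168 calls (112 higher, 56 lower) became 667 (510 higher, 157 lower) by limma-voom, 769 (630 higher, 139 lower) with summed library sizes, and 0 with no filter on low values, where 4177 genes had an unadjusted p-value under 0.05. Leaving out each library gave 0 calls by limma, with 1166 to 3877 unadjusted p-values under 0.05, and by limma-voom, chosen after the data were seen, 52 without control replicate 3, 430 without control replicate 4, 553 without SUV-OE replicate 2 and 540 without SUV-OE replicate 3. In that order these fits called 0, 1, 1 and 2 members, and 0, 2, 3 and 2 genes of the signaling list, against 2 genes of that list by limma-voom on all 4 libraries at either scaling.

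The ligand median of 0.22 ranged from -0.059 to 0.29 with libraries left out, and was 0.069 after quantile normalization, 0.44 with a pseudocount of 0.1 and 0.10 with no filter. It was 0.53 by limma-voom and 0.64 with summed library sizes, and by limma-voom 0.32, 0.56, 0.67 and 0.0907 without control replicates 3 and 4 and SUV-OE replicates 2 and 3. The receptor median of 0.51 ranged from 0.30 to 0.73, and was 0.048 with no filter (then below the ligand median), 1.29 by limma-voom, 1.39 with summed library sizes and by limma-voom 0.95, 1.51, 1.24 and 1.35 without control replicates 3 and 4 and SUV-OE replicates 2 and 3. The cause was not tested, although limma-voom tests more low genes. Summed library sizes moved the median of all genes from -0.01 to 0.08.

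Of 14 members, 8 changed sign under some setting, none of them called on all 4 libraries. Quantile normalization gave -0.0145 for Ccl27a and 0.051 for Cxcr4. With libraries left out, the log2 fold change ranged from -0.18 to 0.68 for Ccl17, -0.11 to 0.31 for Ccl27a, -0.61 to 0.21 for Ccl3, -0.23 to 1.18 for Ccl4, -0.14 to 0.43 for Ccr1, -0.015 to 0.41 for Cxcl14, -2.08 to 0.12 for Cxcl2 and -0.35 to 0.0246 for Cxcr4, and by limma-voom from -0.34 (-0.0576 without SUV-OE replicate 3) to 1.36 for Ccl17, -0.15 to 0.46 for Ccl27a, -0.63 to 0.22 for Ccl3 (0.0259 without SUV-OE replicate 2), -0.29 to 1.34 for Ccl4, -0.15 to 0.45 for Ccr1, -0.0815 to 1.30 for Cxcl14, -2.76 to 0.13 for Cxcl2 and -0.35 to 0.0247 for Cxcr4. Ccr2 and Cxcr2 kept their direction under all these settings. With 2 libraries a group and most members at few reads, small changes were not detectable.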
